A study of Mus musculus with 8 samples.

Results

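The genes described here are 10 markers of kidney tubule injury, Havcr1, Lcn2, Gdf15, Cp, Clu, Spp1, Vcam1, Sox9, Timp1 and Cdkn1a. They were chosen by gene symbol, and all 10 were found among the 23504 gene symbols of the count table. The libraries came from hand-dissected outer cortex of kidneys from C57Bl6/J wild type mice, in a search for genes that differ between a high fat diet and a control diet. The high fat group held 4 libraries (A, B, F and G) and the control group 4 (I, J, L and M). In both groups the diet began at 6 weeks of age and lasted 9 weeks, so the mice were 15 weeks old. The labels carry an unexplained M in every title, do not state the sex, and do not tie each library to a mouse of its own, so a p-value here speaks of the spread among libraries, which may be technical.

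Tubule cells that are stretched, starved of oxygen or poisoned lose part of their transport program and switch on a set of genes for secreted proteins, adhesion molecules and repair. Kidney injury molecule 1 (Havcr1) and neutrophil gelatinase-associated lipocalin (Lcn2) are the best known of these and are measured in urine as signs of acute damage. Others, such as Vcam1 and Spp1, are linked to tubule cells that do not complete repair, while Cdkn1a and Sox9 act inside the cell on the cell cycle and on regeneration.

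Total expected counts ran from 23503593 to 26291029 in the high fat libraries and from 26572175 to 30781585 in the control libraries. In this total, which includes Rn45s, the groups did not overlap (p = 0.0286 by an exact two-sided permutation test). That is the lowest value possible with 70 splits. In control J, 50.3% of counts belonged to Rn45s, the ribosomal RNA precursor, against 1.23% to 13.3% in the other 7 libraries. Rn45s was therefore left out of library sizes and levels. Without it, control J kept 13993652 counts, the lowest of all, and the other libraries kept 21793784 to 30403685. The diets then overlapped in depth, through control J alone (p = 0.8 by the same permutation test). High fat G and control J also stood apart in summed hemoglobin and other red cell RNA, with 4194 CPM in high fat G and 1837 CPM in control J, against 808 to 1049 CPM in the other high fat libraries and 742 to 801 CPM in the other control libraries. CPM is the count scaled to library size with TMM factors. The marker calls and those of the related lists were also computed without these 2 libraries. All 12 proximal tubule markers were detected. They summed to 46466 to 51693 CPM in the high fat libraries and 41004 to 47534 CPM in the control libraries. Inner medulla markers summed to 24.7 to 32.4 CPM on high fat diet and 26.9 to 36.3 CPM on control diet. Urothelium markers summed to 0.986 to 1.72 CPM and 0.821 to 1.56 CPM. These markers cannot tell outer from inner cortex.

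Of the markers, Gdf15 rose and Cp fell on the high fat diet, while the other 7 tested markers did not pass an adjusted p under 0.05, and Timp1 had too few counts to be tested. The 2 of 9 called markers stand beside 9.99% of all 14711 tested genes, 4.86% higher and 5.13% lower, and with so few genes this share is not a result about the markers. The log2 fold change, high fat over control, was above 0 in 5 of the 9 markers and below 0 in 4, from -0.44 to 0.94. Its median was 0.06 over the 9 markers and 0.00 over all tested genes. An unadjusted p under 0.05 was reached by 4 of the 9, 2 higher (Lcn2 and Gdf15) and 2 lower (Cp and Spp1), against 27.4% of all tested genes. The high fat and control values did not overlap in 2 of the 9 (Lcn2 and Cp), against 17.5% of all tested genes. With each library left out in turn, 0 to 3 markers were called, none without high fat F or without control I, J or L, and 3 without control M (Lcn2, Gdf15 and Spp1). In bulk tissue, fewer cells of a type and less RNA per cell cannot be told apart, and this holds for every difference given here.

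**Figure D1:**
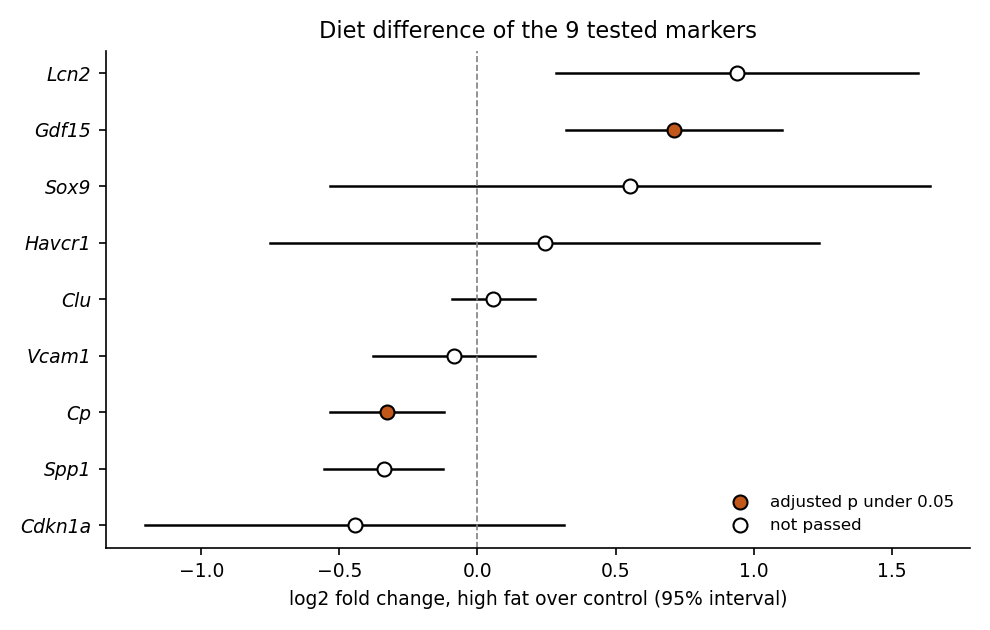
Log2 fold change, high fat over control, of the 9 tested markers with its 95% interval from the edgeR fit (horizontal axis), ordered from highest to lowest, with filled points for an adjusted p under 0.05. Only Gdf15 (0.71) and Cp (-0.33) are filled; Lcn2 has the highest point at 0.94, and the widest intervals belong to Sox9, Havcr1 and Cdkn1a.

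The stretch before the start site is shown for 3 of the 4 markers with an unadjusted p under 0.05, since these are the genes on which the diet comparison turns. The windows are the 250 bases before the RefSeq start on GRCm38.p6, at chr8:70632457-70632706 (minus strand) for Gdf15, chr3:19956804-19957053 (plus strand) for Cp and chr5:104434861-104435110 (plus strand) for Spp1. Capitals mark the short motifs found, read 5′ to 3′ on the strand of the gene.
Gdf15: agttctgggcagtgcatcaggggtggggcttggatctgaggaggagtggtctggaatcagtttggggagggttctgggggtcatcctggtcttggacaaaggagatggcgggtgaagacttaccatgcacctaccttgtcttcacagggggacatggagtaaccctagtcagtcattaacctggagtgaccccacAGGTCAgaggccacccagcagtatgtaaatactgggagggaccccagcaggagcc
Cp: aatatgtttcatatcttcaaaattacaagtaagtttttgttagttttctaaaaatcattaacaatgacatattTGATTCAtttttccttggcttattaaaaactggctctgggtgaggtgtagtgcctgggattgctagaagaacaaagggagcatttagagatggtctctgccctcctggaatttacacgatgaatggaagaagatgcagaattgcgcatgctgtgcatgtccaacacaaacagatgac
Spp1: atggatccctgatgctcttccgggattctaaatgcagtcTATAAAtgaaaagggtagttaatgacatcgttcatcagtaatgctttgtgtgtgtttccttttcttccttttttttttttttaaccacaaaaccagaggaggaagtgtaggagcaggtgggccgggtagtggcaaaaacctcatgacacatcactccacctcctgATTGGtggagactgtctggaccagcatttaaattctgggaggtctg
In Gdf15 the capitals are AGGTCA, the core hexamer of nuclear receptor sites, at -55 to -50. In Cp they are TGATTCA, a match to the AP-1 letters TGANTCA, at -177 to -171. In Spp1 they are TATAAA, the TATA letters, at -211 to -206, and a CCAAT box on the opposite strand (ATTGG as printed) at -46 to -42. Of 32851 promoter windows in the same RefSeq table, 14% held AGGTCA, 6.75% TGANTCA, 12.4% TATAAA and 33.8% CCAAT on either strand. The NF-kB motif (1.41% of all windows), the STAT letters TTCNNNGAA (7.02%), the ATF4 and CHOP composite TGATGNAA (3.45%) and the full p53 consensus (0.00913%) were searched as well and were found in none of the 7 markers that have a window in the table. Timp1 held a CCAAT box, and Clu, Vcam1 and Sox9 are not in that table. The Lcn2 window overlaps exons of other annotated Lcn2 transcripts, and it was searched but is not shown. A match is a run of letters and not a tested binding site. Sites outside the 250 bases were not searched. The full p53 consensus was held by only 3 of 32851 windows, so its absence from 7 windows tells nothing about these markers.

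The first group holds the markers that are secreted or shed by injured tubules. Gdf15, growth differentiation factor 15, is a hormone of cellular stress that acts on the brainstem to reduce feeding (chr8:70629393-70632456, GRCm38, minus strand). It had 5.06, 5.22, 5.71 and 3.70 CPM in high fat libraries A, B, F and G, against 2.70, 3.27, 2.33 and 3.76 CPM in control libraries I, J, L and M. These levels rest on 112, 112, 139 and 91 counts in the high fat libraries and 69, 42, 66 and 119 counts in the control libraries. High fat A, B and F lay above every control library, while high fat G lay just below control M, so the groups overlapped at that point.

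The mean level of Gdf15 was 4.92 ± 0.862 CPM on high fat diet and 3.01 ± 0.629 CPM on control diet (SD, n = 4 each). Gdf15 rose 1.64-fold (95% interval 1.25 to 2.14), and on the log2 scale by 0.71 ± 0.18 (SE; edgeR, adjusted p = 0.0313). The call held without high fat G (adjusted p = 0.0213) or without control M (0.0176), the libraries at which the groups meet. It was lost when any of the other 6 libraries was left out, with an adjusted p of up to 0.0882, and the log2 fold change over the 8 such fits ran from 0.59 to 0.86. Without both high fat G and control J the log2 fold change was 0.86 (adjusted p = 0.0446, edgeR), and the adjusted p over all alternatives ran from 0.00473 to 0.520. Gdf15 was the only one of the markers in the authors' deposited tables of comparisons, with a high fat over control ratio of 1.638 in the table by gene symbol and a posterior probability of equal expression of 0.01998.

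Lcn2 encodes lipocalin 2, an iron carrier that binds bacterial siderophores and is made by injured distal nephron and by neutrophils (chr2:32384633-32388252, minus strand). It had 10, 15, 14 and 17 counts in high fat libraries A, B, F and G, against 8, 3, 6 and 14 counts in control libraries I, J, L and M. Scaled to depth, these were 0.451, 0.699, 0.575 and 0.691 CPM in high fat libraries and 0.313, 0.233, 0.212 and 0.442 CPM in control libraries. Every high fat library was higher than every control library, although high fat A and control M, at 0.451 and 0.442 CPM, differed by less than 1 count is worth.

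The mean of Lcn2 was 0.604 ± 0.116 CPM on high fat diet and 0.300 ± 0.104 CPM on control diet (SD, n = 4 each). Its log2 fold change of 0.94 ± 0.30 (SE), with a 95% interval of 0.28 to 1.59, did not pass (adjusted p = 0.0693, edgeR). It passed when control M was left out (log2 fold change 1.23, adjusted p = 0.0403) and in none of the other 7 fits without 1 library, with an adjusted p of up to 0.161. The neutrophil genes S100a8 and S100a9, markers of another source of Lcn2, had means of 0.392 and 0.399 CPM on high fat diet and 0.216 and 0.248 CPM on control diet. They were too low to be tested, and their part in the Lcn2 values was not tested.

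Havcr1 encodes kidney injury molecule 1, a phagocytic receptor that appears on injured proximal tubule cells and is shed into urine (chr11:46735080-46779578, plus strand). It had 1.13, 0.886, 2.63 and 0.569 CPM in high fat libraries A, B, F and G, against 0.508, 0.934, 1.27 and 1.58 CPM in control libraries I, J, L and M. The highest value, in high fat F, came from 64 counts, and the other libraries held 12 to 50. The groups overlapped widely and the libraries of 1 diet differed more among themselves than the diets did: Havcr1 averaged 1.303 ± 0.913 CPM on high fat diet and 1.07 ± 0.459 CPM on control diet (SD, n = 4 each). The log2 fold change was 0.24 with a 95% interval of -0.75 to 1.24 (adjusted p = 0.773, edgeR), and it was -0.37 without high fat F, -0.0061 without control I, 0.38 without high fat B, 0.50 without high fat G and 0.53 without control M.

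Spp1 encodes osteopontin, a secreted phosphoprotein that inhibits crystal growth in urine and attracts macrophages (chr5:104435118-104441050, plus strand). Its levels were 413, 491, 359 and 406 CPM in high fat libraries A, B, F and G, against 549, 565, 545 and 451 CPM in control libraries I, J, L and M. Control M was lower than high fat B, and the other 3 control libraries were higher than all high fat libraries. The mean was 417 ± 54.9 CPM on high fat diet and 528 ± 52.0 CPM on control diet (SD, n = 4 each). The log2 fold change was -0.34 ± 0.10 (SE, 95% interval -0.56 to -0.12), which narrowly missed the threshold (adjusted p = 0.0517, edgeR). It passed when high fat B was left out (log2 fold change -0.43, adjusted p = 0.0204) or control M (-0.41, adjusted p = 0.0227), and also with DESeq2 (adjusted p = 0.0158) and limma-voom (0.0486), over a range of 0.0158 to 1.00 in all alternatives.

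Cp encodes ceruloplasmin, a copper-bearing ferroxidase of plasma that kidney epithelium also makes (chr3:19957054-20009145, plus strand). Its levels were 41.3, 37.1, 31.3 and 39.3 CPM in high fat libraries A, B, F and G, against 43.7, 53.8, 46.2 and 44.0 CPM in control libraries I, J, L and M. Every high fat library was lower than every control library, with high fat A closest to control I. Cp fell on the high fat diet, with 37.3 ± 4.32 CPM against 46.9 ± 4.74 CPM on control diet (SD, n = 4 each), a ratio of 0.797 and a log2 fold change of -0.33 ± 0.09 (SE).

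The call of Cp was at the edge of the threshold (adjusted p = 0.0487, edgeR, 95% interval of the log2 fold change -0.53 to -0.12). It held when high fat A was left out (adjusted p = 0.0476) and was lost when any of the other 7 libraries was left out, with an adjusted p of up to 0.109 and a log2 fold change of -0.38 to -0.25 over the 8 fits. It was also lost without both high fat G and control J (-0.29, adjusted p = 0.136). Cp overlaps Hps3 in the genome, and the sources used here do not give the strand setting of the counting; Hps3 had 65.0 ± 1.71 CPM on high fat diet and 61.2 ± 4.96 CPM on control diet, a log2 fold change of 0.08.

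Markers of the thick ascending limb, a nephron segment that can express Spp1, were lower on the high fat diet in the same libraries. Of 6 markers, 4 fell in edgeR (Slc12a1, Cldn16, Cldn19 and Kcnj1) and none rose. Of all tested genes, 4.86% were called higher and 5.13% lower. The 6 markers summed to 2856 to 3601 CPM in high fat libraries and 3582 to 4240 CPM in control libraries. Slc12a1, the sodium, potassium and chloride cotransporter, fell by 0.53 on the log2 scale (527 ± 81.0 CPM on high fat diet against 760 ± 61.3 CPM on control diet, SD, n = 4 each, adjusted p = 0.0118, edgeR). The call of Cldn16 was lost without high fat F or G and without control I or L, and that of Kcnj1 without high fat F and without control I (adjusted p up to 0.0669 and 0.0618, edgeR). The collecting duct markers summed to 373 to 456 CPM in high fat libraries and 422 to 556 CPM in control libraries. Of these 8 markers, 2 fell (Avpr2 and Scnn1g) and none rose. Of the 12 proximal tubule markers, 2 rose (Slc34a1 by 0.33 and Slc6a19 by 0.40 on the log2 scale), 2 fell (Cubn by 0.26 and Aqp1 by 0.22) and 8 did not pass. Without high fat G and control J, the calls of Slc12a1, Slc6a19 and Scnn1g held. Those of Cldn16, Cldn19, Kcnj1, Slc34a1, Cubn, Aqp1 and Avpr2 were lost (adjusted p up to 0.201, edgeR). In that fit 2.83% of all tested genes were called, against 9.99% with all 8 libraries. All of these genes kept their direction. The fall of Cldn16, Cldn19, Kcnj1 and Cubn was slightly larger than with all 8 libraries. The fall of Aqp1 and Avpr2 and the rise of Slc34a1 were smaller. The part of these segments in the values of Spp1 and Cp was not tested.

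Clu encodes clusterin, a secreted chaperone that accumulates in injured tubules (chr14:65968483-65981547, plus strand). Its levels were 219, 231, 225 and 235 CPM in high fat libraries A, B, F and G, against 195, 246, 217 and 217 CPM in control libraries I, J, L and M. The control libraries enclosed the high fat libraries, and control I was the lowest and control J the highest of all. The means were 228 ± 7.17 CPM on high fat diet and 219 ± 21.0 CPM on control diet (SD, n = 4 each), and the log2 fold change was 0.06 with a 95% interval of -0.09 to 0.21 (adjusted p = 0.636, edgeR). It was 0.0050 without control I and 0.12 without control J.

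**Figure D2:**
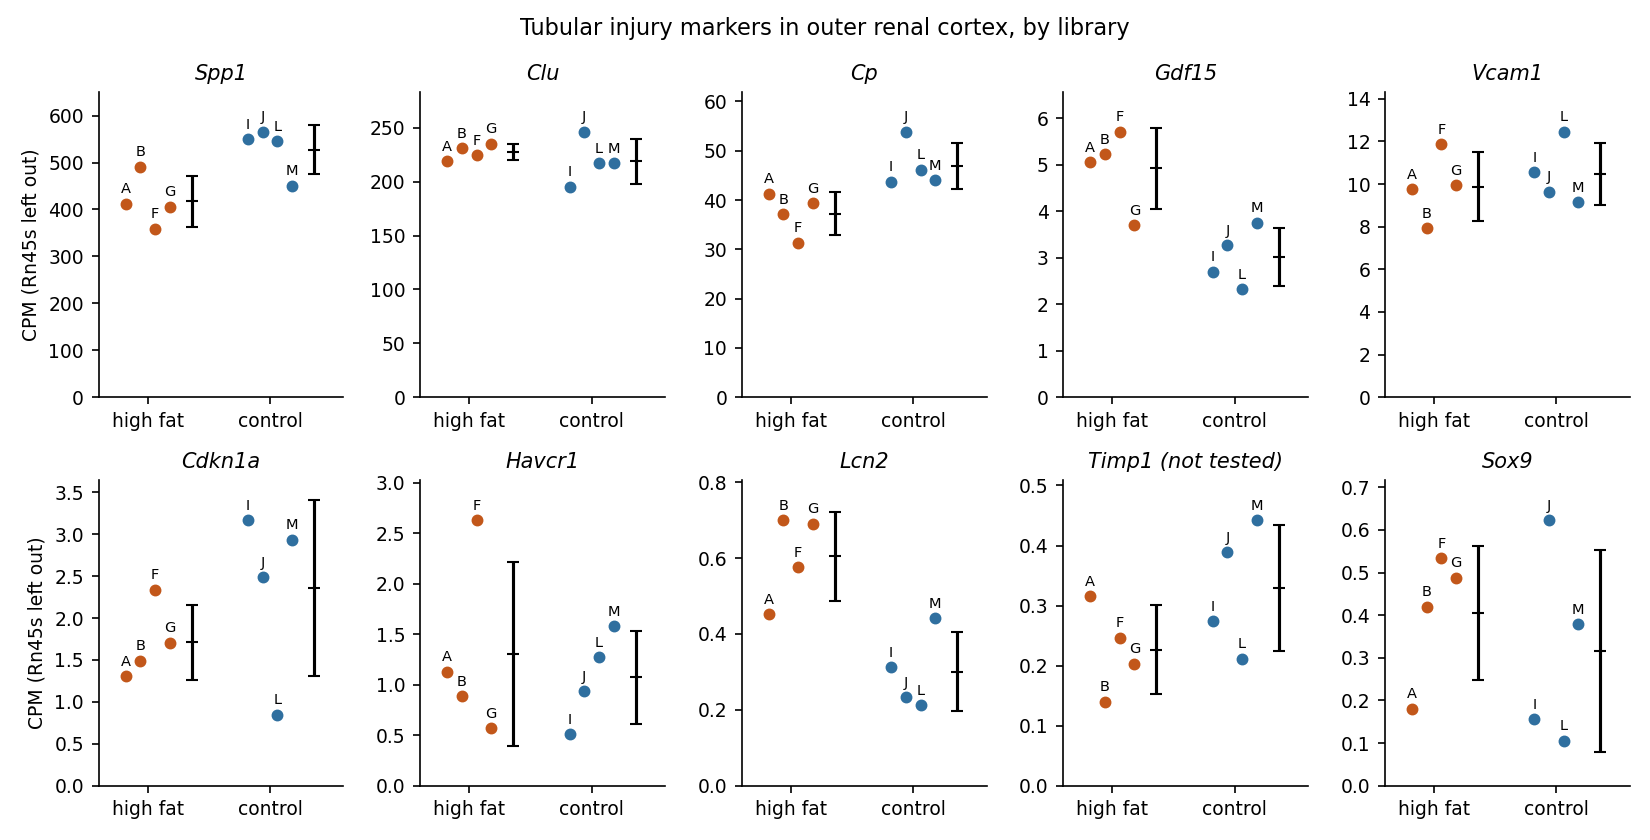
Level of each of the 10 markers in CPM without Rn45s (vertical axis, starting at 0), 1 point per library with its letter, and at the right of each diet the mean and SD. For Cp and Lcn2 the high fat points do not overlap the control points, although high fat A and control M nearly touch for Lcn2; for Gdf15 high fat G lies at the level of control M, and for Havcr1 high fat F lies far above the other libraries.

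The second group acts at the cell surface and in the matrix. Vcam1 encodes an adhesion molecule for leukocytes that marks tubule cells that fail to recover (chr3:116109949-116129688, minus strand). It had 9.75, 7.93, 11.9 and 9.95 CPM in high fat libraries A, B, F and G, against 10.6, 9.65, 12.5 and 9.16 CPM in control libraries I, J, L and M. High fat B was the lowest library and control L the highest, and the groups overlapped. The log2 fold change was -0.08 with a 95% interval of -0.38 to 0.21 (adjusted p = 0.727, edgeR), and it was above 0 without high fat B (0.0052) and without control L (0.015), -0.19 without high fat F and -0.15 without control M. Endothelial cells also express Vcam1. Their 8 markers summed to 455 to 482 CPM in high fat libraries and 448 to 477 CPM in control libraries. None passed in edgeR, DESeq2 or limma-voom (0 with an unadjusted p under 0.05 in edgeR). Of all tested genes, 9.99% passed in edgeR, 12.5% in DESeq2 and 9.87% in limma-voom, and 27.4% had an unadjusted p under 0.05. With so few markers, these counts are not a result about endothelial cells.

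Timp1 encodes the tissue inhibitor of metalloproteinases 1, a gene of matrix build-up in scarring kidneys (chrX:20870166-20874735, plus strand). It was removed by the filter on low counts, with 7, 3, 6 and 5 counts in high fat libraries A, B, F and G and 7, 5, 6 and 14 counts in control libraries I, J, L and M. Control M was highest and high fat B lowest. Without that filter its log2 fold change was -0.52 with a 95% interval of -1.37 to 0.34 (adjusted p = 0.491, edgeR). Timp1 lies within the Syn1 gene, which had 8 to 22 counts per library, and reads of the pair cannot be told apart if counting did not use strand.

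The third group acts in the nucleus. Cdkn1a encodes p21, an inhibitor of cyclin-dependent kinases that p53 induces and that stops the cell cycle after damage (chr17:29090976-29100727, plus strand). Its levels were 1.31, 1.49, 2.34 and 1.71 CPM in high fat libraries A, B, F and G, against 3.17, 2.49, 0.847 and 2.94 CPM in control libraries I, J, L and M. Control I, J and M exceeded every high fat library and control L lay below all of them. The mean was 1.71 ± 0.450 CPM on high fat diet and 2.36 ± 1.05 CPM on control diet (SD, n = 4 each), with a log2 fold change of -0.44 and a 95% interval of -1.20 to 0.31 (adjusted p = 0.441, edgeR). It was -0.75 without control L (adjusted p = 0.0522), -0.25 without control I and -0.29 without control M, and no alternative passed, with an adjusted p of 0.0522 to 1.00.

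Sox9 encodes a transcription factor that surviving tubule cells switch on to regenerate (chr11:112782224-112787760, plus strand). It had 4, 9, 13 and 12 counts in high fat libraries A, B, F and G, against 4, 8, 3 and 12 counts in control libraries I, J, L and M. In CPM, control J held the highest value at 0.622 and control L the lowest at 0.106, so the diets overlapped over the whole range. The log2 fold change was 0.55 with a 95% interval of -0.53 to 1.64 (adjusted p = 0.508, edgeR), an interval that leaves room for a large difference in either direction. It was 0.24 without control L, 0.35 without control I and 0.88 without control J, none of which passed.

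**Figure D3:**
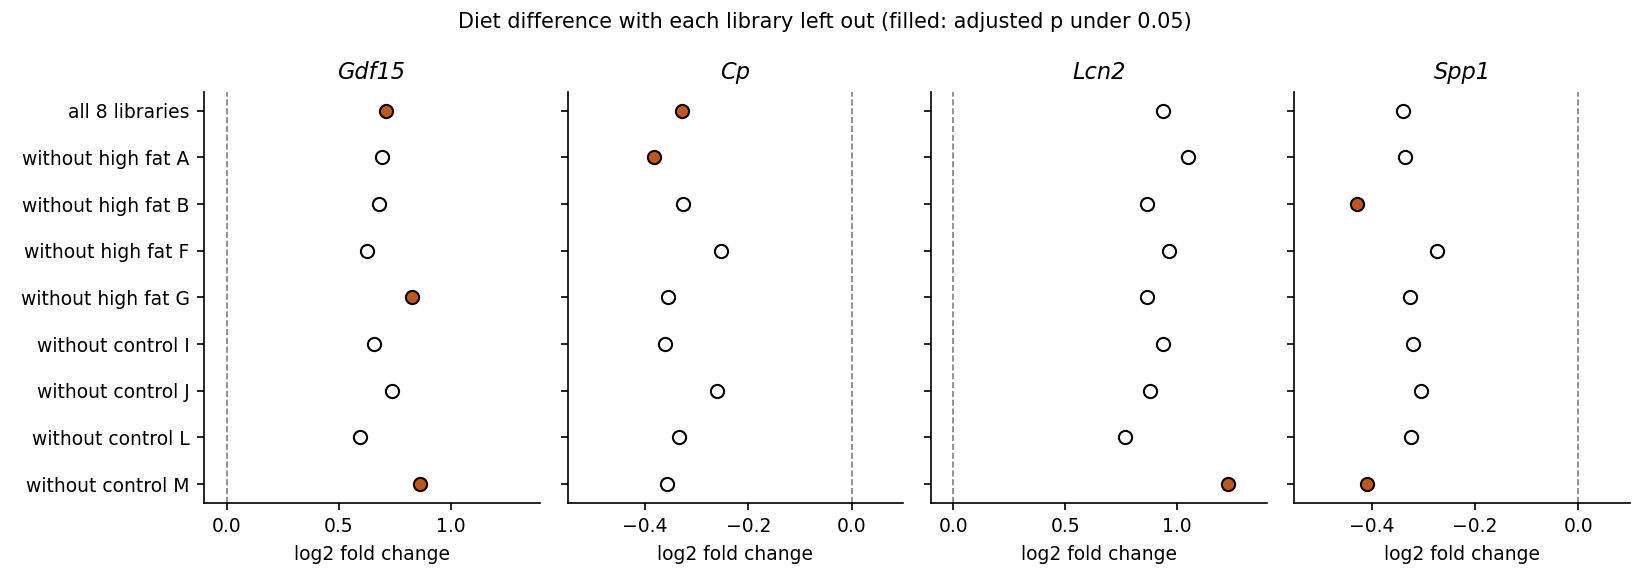
Log2 fold change, high fat over control, of Gdf15, Cp, Lcn2 and Spp1 (horizontal axes) in the fit of all 8 libraries and with each library left out (rows), with filled points for an adjusted p under 0.05. No point crosses 0; Gdf15 is called in 2 of the 8 reduced fits, Cp in 1, Lcn2 in 1 and Spp1 in 2, and leaving out control M gives the highest value of Gdf15 (0.86) and of Lcn2 (1.23).

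Levels between genes were compared on the deposited FPKM, which are per length of transcript. Spp1 averaged 303 FPKM over the 8 libraries and Clu 112 FPKM, followed by Cp at 9.22, Gdf15 at 3.42, Vcam1 at 2.71 and Cdkn1a at 0.960 FPKM. Havcr1 averaged 0.586, Lcn2 0.512, Timp1 0.291 and Sox9 0.0737 FPKM. The ranges over libraries of Spp1 and Clu, of Clu and Cp, of Cp and Gdf15, and of Timp1 and Sox9 did not overlap, while those of the other neighbours in this order did. Spp1 and Clu, secreted proteins that healthy tubules also make, were thus the abundant markers, and Havcr1 and Lcn2, the urinary signs of acute injury, were near the lower end. Control J, whose total includes the most Rn45s, had the lowest deposited FPKM of the 8 libraries for 7 of the 10 markers (not for Cdkn1a, Timp1 and Sox9): its Spp1 value was 187 FPKM as deposited and 336 FPKM once rescaled without Rn45s.

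**Figure D4:**
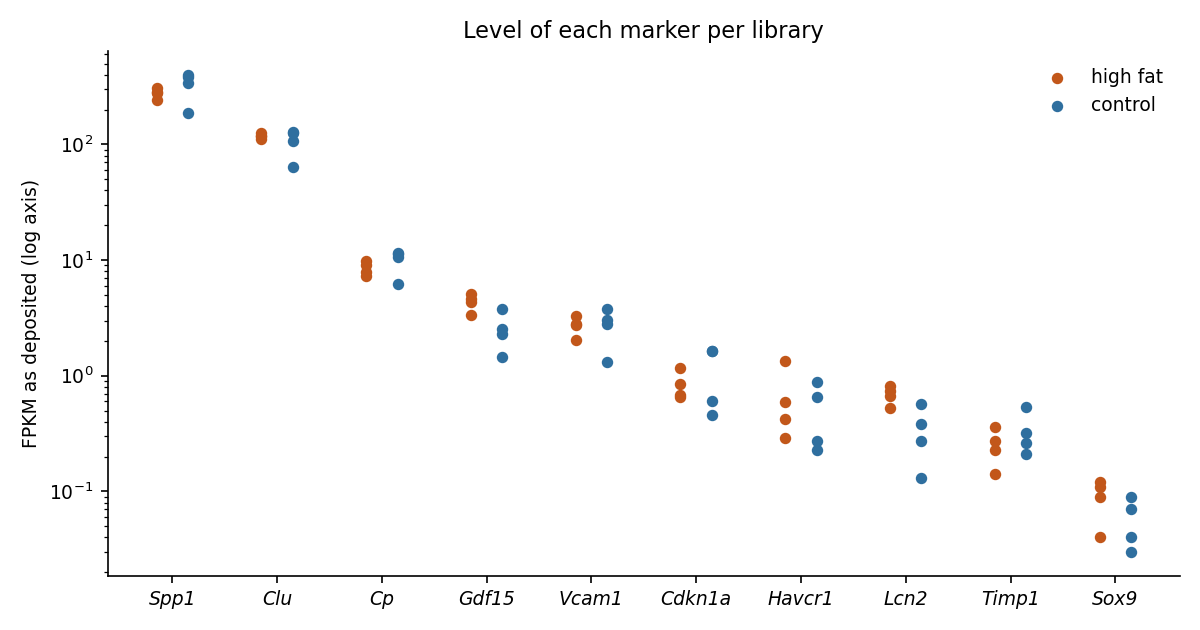
FPKM of the 10 markers as deposited (vertical axis, log scale), 1 point per library, high fat left of control, ordered by the mean over the 8 libraries. Spp1 and Clu lie at 63.7 to 401 FPKM in every library, and Sox9 at 0.03 to 0.12 FPKM.

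Correlations between the tested markers over the libraries had either sign. Pairs with Sox9 (3 to 13 counts per library), Lcn2 (3 to 17) or Havcr1 (12 to 64) carry a large counting error, which can weaken a correlation. Over the 36 pairs of tested markers, the correlation of log2 CPM after removing the diet means had a median of -0.0978, from -0.618 (Havcr1 and Spp1) to 0.718 (Clu and Sox9), over 8 libraries that share depth and composition. The genes most like Gdf15 over the 8 libraries were Spef1 (Pearson r = 0.979), Lonp1 (0.978) and Tmem176b (0.976), with r of 0.955, 0.975 and 0.948 within diets. Those most like Cp were Xlr (0.984), Cdr2 (0.982) and Egflam (0.980), with 0.962, 0.969 and 0.960 within diets. Those most like Spp1 were Gc (0.988), Wbp5 (0.986) and Rps10 (0.985), with 0.985, 0.972 and 0.965 within diets. These are the highest values among all tested genes, over only 8 libraries that share depth and diet.

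Other genes of tubular injury and failed repair were called in both directions. Of 36 such genes, 31 were tested, 1 rose, 2 fell and 28 did not pass, with a median log2 fold change of -0.14. The share called was 9.68%, against 9.99% of all tested genes. An unadjusted p under 0.05 was reached by 10 of the 31, 1 higher and 9 lower, against 27.4% of all tested genes. The summed level of the list was 783 to 835 CPM in high fat libraries and 833 to 989 CPM in control libraries. Hbegf, a growth factor of the EGF family that injured tubules release, rose: it had 22.8, 25.9, 17.2 and 18.7 CPM in high fat libraries A, B, F and G, against 15.1, 10.6, 10.02 and 12.3 CPM in control libraries I, J, L and M. Every high fat value was higher than every control value, and the log2 fold change was 0.81 ± 0.15 (SE, adjusted p = 0.0102, edgeR). Cryab, a small heat shock protein, fell to 18.2, 12.4, 14.1 and 12.1 CPM in the high fat libraries, against 24.6, 23.3, 20.8 and 25.5 CPM in the control libraries (log2 fold change -0.73, adjusted p = 0.00657, edgeR). Akap12, a scaffold for protein kinase A, fell by 0.34 on the log2 scale, and its call was lost without high fat A, B or F and without control I, J or M (adjusted p up to 0.1003, edgeR). The keratin gene Krt7 just missed (log2 fold change -0.26, adjusted p = 0.0502, edgeR).

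Genes related to Cdkn1a, which are p53, its other targets and genes of cell cycle arrest, moved in both directions. Of 28, 26 were tested, 3 rose and 2 fell, with a median log2 fold change of 0.07. The share called was 19.2%, against 9.99% of all tested genes, and no set test was run. Trp53inp1, a p53 target that promotes cell death and autophagy, rose by 0.44 on the log2 scale, with 65.9 ± 7.58 CPM on high fat diet and 48.5 ± 2.17 CPM on control diet (SD, n = 4 each, adjusted p = 0.00824, edgeR). Sesn2, a stress-induced inhibitor of mTORC1, rose by 0.65, and the kinase inhibitor gene Cdkn2c rose by 0.62. Aen, a nuclease of apoptosis, fell by 0.31, and Cdkn1c, a relative of Cdkn1a, fell by 0.32 and kept its call in 1 of the 8 fits without 1 library, that without high fat B (adjusted p up to 0.130 in the others, edgeR). Trp53 itself and Mdm2 had log2 fold changes of 0.11 and -0.05 (adjusted p = 0.615 and 0.644, edgeR).

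Gdf15 is a known target of the integrated stress response, of which 11 of 13 genes were tested. None rose and 1 fell (9.09% called, against 9.99% of all tested genes, with a median log2 fold change of -0.02). That gene was Atf4, the transcription factor of the pathway, with 64.0, 63.8, 60.1 and 58.2 CPM in high fat libraries A, B, F and G, against 74.2, 81.9, 79.3 and 79.4 CPM in control libraries I, J, L and M. The groups did not overlap, and Atf4 fell by 0.35 on the log2 scale (adjusted p = 0.0044, edgeR), in all 8 fits without 1 library. Ddit3, which encodes CHOP, had a log2 fold change of 0.15 (adjusted p = 0.435, edgeR).

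Among the adhesion and NF-kB genes that accompany Vcam1, 14 of 21 were tested, 2 rose and none fell. The share called was 14.3%, against 9.99% of all tested genes, with a median log2 fold change of 0.07. Nfkbia, the NF-kB inhibitor that NF-kB itself induces, rose: it had 27.2, 29.1, 28.3 and 28.3 CPM in high fat libraries A, B, F and G, against 21.7, 23.5, 19.97 and 22.2 CPM in control libraries I, J, L and M. No values overlapped, and the log2 fold change was 0.37 ± 0.06 (SE, adjusted p = 0.0065, edgeR). Cxcl1, a chemokine that draws neutrophils, rose by 1.36 at 1.26 ± 0.492 CPM on high fat diet and 0.467 ± 0.154 CPM on control diet (SD, n = 4 each). These levels rest on 31, 40, 17 and 27 counts in high fat A, B, F and G, and 17, 4, 11 and 16 in control I, J, L and M. The call of Cxcl1 was lost without high fat A or B and without control J or L (adjusted p up to 0.0716, edgeR). Without control M, 5 of 14 tested genes of this list were called, Nfkb2, Rela and Relb among them, against 10.3% of all tested genes. The macrophage and leukocyte markers summed to 95.6 to 128 CPM in high fat libraries and 83.2 to 122 CPM in control libraries. None of the 8 tested passed in edgeR, DESeq2 or limma-voom. In edgeR, 0 had an unadjusted p under 0.05, against 27.4% of all tested genes. With so few markers, these counts are not a result about those cells.

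Of 12 metalloproteinase and inhibitor genes related to Timp1, 9 were tested and none passed in edgeR, against 9.99% of all tested genes. An unadjusted p under 0.05 was reached by 4 of the 9 genes, 2 higher and 2 lower, against 27.4% of all tested genes. DESeq2 called 1, Timp3, against 12.5% of all tested genes, and limma-voom none, against 9.87%. Timp3, the most abundant inhibitor of the family here, had 2933 ± 202 CPM on high fat diet and 2321 ± 421 CPM on control diet (SD, n = 4 each), a log2 fold change of 0.34 (adjusted p = 0.0872, edgeR).

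Of 31 genes for receptors and partners of the markers, 26 were tested, 2 rose and 1 fell. The share called was 11.5%, against 9.99% of all tested genes, with a median log2 fold change of 0.04. Cyclin D1 (Ccnd1), whose kinases p21 binds, rose by 0.40 on the log2 scale, with 289 ± 39.4 CPM on high fat diet and 220 ± 7.76 CPM on control diet (SD, n = 4 each, adjusted p = 0.0175, edgeR). Cdk1, the kinase of mitosis, rose by 1.27 at 1.81 CPM on high fat diet and 0.682 CPM on control diet. Its lowest control value was 0.156 CPM in control J, where 1 count is 0.0778 CPM. The call of Cdk1 was lost without high fat B or F and without control L (adjusted p up to 0.0870, edgeR). Cubn, the cubilin receptor of proximal tubule endocytosis, fell by 0.26 and was lost without high fat F (adjusted p = 0.0512), and Ccnd1 was lost without control I (0.0536). Without control M, 5 of 26 tested genes of this list were called, against 10.3% of all tested genes. The receptor gene of Gdf15, Gfral, which acts in the brainstem, had 0 counts in all 8 libraries, and Slc22a17, a lipocalin 2 receptor, had 18.8 ± 0.325 CPM on high fat diet and 18.7 ± 0.789 CPM on control diet (SD, n = 4 each).

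Without high fat G and control J, the genes of the 6 related lists that kept their call were Hbegf, Cryab, Trp53inp1, Cdkn2c, Atf4, Nfkbia and Cdk1. Akap12, Sesn2, Aen, Cdkn1c, Cxcl1, Ccnd1 and Cubn lost it (adjusted p from 0.0550 to 0.194, edgeR), each with the same direction. In that fit 2.83% of all tested genes were called, against 9.99% with all 8 libraries.

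**Figure D5:**
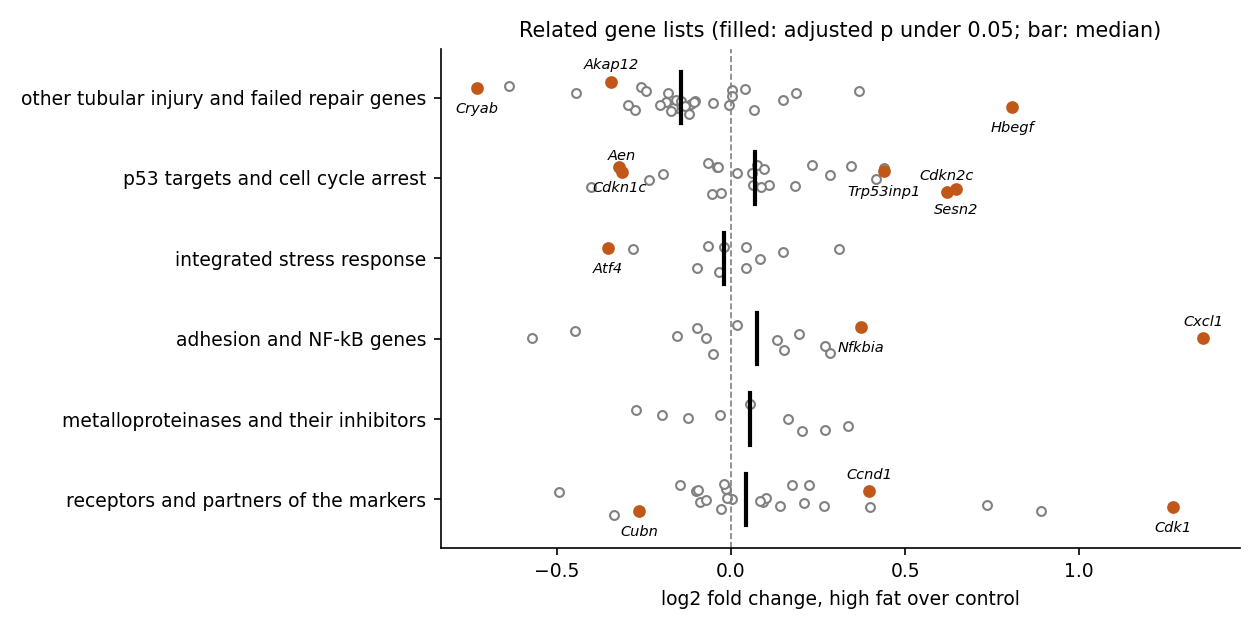
Log2 fold change, high fat over control (horizontal axis), of the tested genes in 6 related gene lists (rows), with filled and named points for an adjusted p under 0.05 and a bar at each list's median. The medians lie between -0.14 and 0.07, and the called genes fall on both sides of 0 in the lists of injury genes, p53 targets and receptors.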

How the data were processed

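RNA of 8 libraries (4 per diet) was made with a TruSeq kit that depletes ribosomal RNA, per the labels. CASAVA 1.8.2, RSEM 1.2.9 and the mm10 build are named in the submitters' processing notes. For annotation and strand, the sources used here give nothing. The authors deposited expected counts per gene symbol, which RSEM estimates and which need not be whole, and FPKM for the same symbols. The authors' deposited comparison tables give, for listed genes only, a ratio (fold, high fat over control) with posterior probabilities of equal or different expression, a score between 0 and 1.

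Expected counts were rounded, Rn45s was left out, and edgeR 4.0.16 in R 4.3.3 was run on all 8 libraries (quasi-likelihood F test, TMM factors, filterByExpr, diet as the only term). Of 23504 symbols, 14711 were tested. The threshold was 0.05 for p-values adjusted by Benjamini-Hochberg over all tested genes. Levels are CPM, as mean ± SD of 4 libraries. A single count equals 0.0316 to 0.0778 CPM, which limits the precision of Lcn2, Sox9 and Timp1, and of the list genes Cxcl1 and Cdk1. The markers and gene lists were chosen with earlier results of these data known. All 10 markers are named whatever their result. The called genes of each related list (up to 4 per direction) and the 3 genes most like each of 3 markers are named too. Krt7, Trp53, Mdm2, Ddit3, Timp3, S100a8, S100a9, Gfral, Slc22a17, Slc34a1, Slc6a19, Aqp1, Avpr2 and Scnn1g were named after their values were seen. Alternatives were DESeq2 1.42.0 (size factors or Wald test), limma-voom (limma 3.58.1), limma on log2(FPKM + 0.1) or log2(FPKM + 1) where mean FPKM reached 0.5, other filters and thresholds, Rn45s kept, a robust fit and left-out libraries; rescaled FPKM, and the list counts without high fat G and control J, were added after the data were seen. A gene of the injury list is not reported here. Gene positions are from GENCODE M21, and promoter sequences from RefSeq. Spp1, Vcam1 and Cdkn1a also overlap another annotated gene (Gm42793, Gm43109 and AC167363.2, in that order), whose reads were not examined.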

Additional observations from a re-analysis of the deposited data

Results flagged for a closer look

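In the control group, library J stood far from the other 3 with 50.3% of its counts in Rn45s. Summed red cell RNA was 4194 CPM in high fat G, far above the other high fat libraries, and 1837 CPM in control J, far above the other control libraries. Kcnj1, a potassium channel gene of the thick ascending limb, was 201 CPM in high fat F, below 226 to 230 CPM in the other high fat libraries. These are 4 of 124 groups of 4 values examined, and chance alone flags about 1 in 20. None of the 10 markers had such a library, in CPM or in FPKM.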

How the results depend on the processing

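Against 1469 genes called in edgeR with all 8 libraries, 91 were called by limma on log2(FPKM + 0.1), 98 on log2(FPKM + 1) and 819 on rescaled FPKM without Rn45s. The count was 417 without high fat G and control J, 330 at an adjusted p under 0.01, 2547 under 0.1, and 739 to 1528 with each library left out (for high fat A 934, F 739 and G 908, for control I 795 and J 801). In place of 2 markers, the called number was 1 with DESeq2 size factors (Gdf15), 0 with either fit of deposited FPKM, 0 with a minimum mean of 5 CPM (which leaves Gdf15 out), 1 without high fat G and control J (Gdf15), 0 under 0.01, 4 under 0.1, and 0 to 3 with each library left out. It was 3 with DESeq2, with no filter and in the robust fit (Gdf15, Cp and Spp1). In limma-voom and on rescaled FPKM it was 2, Gdf15 and Spp1 in place of Cp. Cp lost its call in 14 of 19 alternatives and Gdf15 in 8 of 18, and each kept its direction in all of them. With each library left out, 1 to 5 adhesion and NF-kB genes and 0 to 1 metalloproteinase genes were called. Receptor and partner genes called numbered 2 to 5, and 4.99% to 10.3% of all tested genes were called in these fits. Without high fat G and control J these lists had 1, 0 and 1 called, and p53 and arrest genes 2 in place of 5. The share of all tested genes called was then 2.83%, against 9.99% with all 8 libraries. For Havcr1 with each library left out, the log2 fold change was between -0.37 (high fat F left out) and 0.53, and -0.0061 without control I. That of Vcam1 was 0.063 on log2(FPKM + 0.1), 0.031 on log2(FPKM + 1), 0.0052 without high fat B and 0.015 without control L. On log2(FPKM + 0.1) with FPKM rescaled without Rn45s it was -0.066, beside -0.084 in edgeR with all 8 libraries. The cause of these changes was not tested. Ordered by median FPKM, 8 of the 10 markers kept their rank, and Havcr1 and Lcn2 changed places. No paired analysis was possible because the library letters differ between the diets. With 3 to 17 counts per library, a difference in Lcn2, Sox9 or Timp1 is measured with wide error.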
